A study of Mus musculus with 4 samples.

Results

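Among 19100 cells from sorted splenic CD4 T cells profiled by droplet single-cell RNA sequencing, 293 cells (1.53%) carried transcripts of both Foxp3 and Gpr83 and are described here as Foxp3+ Gpr83+ cells. They were chosen by raw counts of unique molecular identifiers (UMIs, the tags that count captured mRNA molecules). A cell was kept with at least 2000 UMIs, at least 500 detected genes and at most 10% mitochondrial UMIs. It was selected when it held at least 1 UMI of Foxp3, at least 1 of Gpr83 and at least 1 of Cd3e, Cd3d and Cd3g together. The levels of these 5 genes are therefore a description of the choice, and no test was run on them. The libraries held 83 of 6178 kept cells (female, labelled Irf5-/-), 20 of 1814 (female, labelled WT), 126 of 6543 (male, labelled Irf5-/-) and 64 of 4565 (male, labelled WT). Series of 4 values below follow this order of libraries, and levels are in CPM, the UMIs of a gene per 1000000 UMIs summed over the cells of a class in a library.

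The mice were C57BL6/J, either lacking interferon regulatory factor 5 (Irf5-/-) or wild type (WT), and each genotype had 1 female and 1 male library. Splenocytes were sorted for CD3 and CD4, and every library was then exposed for 6 hours to anti-CD3/anti-CD28 Dynabeads, which engage the T cell receptor and its main costimulatory receptor, so no unstimulated cells were sampled. Age, the number of mice per library, any batch or date and the deleted exons of Irf5 are not given in the sources used here. The 4 libraries are the replicates throughout, and p-values measure only the spread between these libraries.

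Foxp3 encodes the transcription factor that defines regulatory T cells, which restrain other T cells and depend on interleukin 2 made by those cells. Such cells carry the high-affinity interleukin 2 receptor, and many that circulate through spleen and lymph nodes keep the egress receptor S1pr1 and the chromatin factor Helios (Ikzf2), whereas activated ones in tissues carry effector genes. Gpr83 encodes an orphan-type G protein-coupled receptor known as a transcript enriched in regulatory T cells, and Izumo1r encodes folate receptor 4, a surface marker of the same cells.

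The libraries contained between 28841161 and 55850754 UMIs, and the 293 cells between 132495 and 828876 per library. Irf5 went against the genotype labels: the Foxp3+ Gpr83+ cells had 7.54, 0, 8.45 and 1.9 CPM and all other kept cells 8.58, 0.944, 9.08 and 1.18. Whether the counted 3′ reads lie outside the deleted part is not known, so these counts do not settle the genotype. The libraries are therefore called labelled knockout and labelled wild type. Sp110, a nuclear body gene of the same chromosome region as Sp140, separated the labels in the Foxp3+ Gpr83+ cells, at 0, 219, 1.21 and 158 CPM. That difference follows the labels but does not measure Irf5. Only 43 barcodes occurred in more than 1 library, and 1 of them belonged to the 293 cells. Doublet scoring marked 17 of the 293, and results without them are among the alternatives. Whether counting used strand is not stated, so reads of overlapping or antisense genes cannot be told apart.

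The selected cells held a median of 3 Foxp3 UMIs (highest 14) and 3 Gpr83 UMIs (highest 22). At the threshold stood 56 cells with a single Foxp3 UMI and 71 with a single Gpr83 UMI, of which 14 had a single UMI of both. Just outside stood 503 Foxp3+ cells with no Gpr83 UMI, 248 CD3+ cells with Gpr83 but no Foxp3, and 19 cells with both but no CD3 UMI. A further 7 barcodes with at least 1500 but fewer than 2000 UMIs and 4 with over 10% mitochondrial UMIs met the marker rule. Foxp3 stood at 644, 460.4, 559 and 552 CPM and Gpr83 at 679, 702, 502 and 542. In droplets with fewer than 200 UMIs, which hold free RNA, Foxp3 stood at 63.8, 19.9, 44.2 and 28.2 and Gpr83 at 21.8, 11.7, 13.7 and 11.1 CPM. None of 16 CD3-negative cells with haemoglobin or B cell transcripts (median 5134 UMIs) had a Foxp3 or Gpr83 UMI, which allows a share of up to 18.8%.

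Markers of other cell types that a sort for CD3 and CD4 could still hold were counted in the 293 cells. Of 10 B cell markers 7 were detected, at a summed 51.4 to 158 CPM over the libraries (57.9 to 238 in all other kept cells), and Ms4a1 and H2-Ab1 were among those at 0. Of 11 myeloid markers only Cst3 and Cd68 were detected, together at 22.6 to 67.9 CPM. Of 8 NK markers 4 were detected, at a summed 0 to 57.8 against 9.29 to 18.6 in all other kept cells, with Ncr1, Klrb1c, Gzma and Klre1 at 0. Erythroid markers summed to 0 to 7.55 with Hba-a1, Hbb-bt and Alas2 at 0, and the innate-like T markers Zbtb16, Cxcr6 and Il4 to 0 to 67.9. CD8 markers summed to 9.51 to 22.6 (7.74 to 10.2 in all other kept cells), nearly all Cd8b1. Of 4 gamma-delta T cell markers Tcrg-C1, Tcrg-C2 and Trdc were detected and Trdv4 was at 0, with sums of 13.3 to 42.7 against 4.57 to 13.7 in all other kept cells. Of 3 gamma-delta markers tested, 2 were called as higher than in all other kept cells (median log2 fold change 2.55), and so was 1 of 3 tested NK markers, Nkg7 (1.45, edgeR adjusted p = 0.0286). Nkg7 had 19, 0, 2 and 1 UMIs, 18 of them in 1 cell of the female library labelled knockout, and without that library it stood at -0.78 and was not called. The gamma-delta genes were Tcrg-C2 (2.55, edgeR adjusted p = 0.00644), on 10 UMIs and not called without that library, and Tcrg-C1. Tcrg-C1 was higher in the Foxp3+ Gpr83+ cells (log2 fold change 3.31, edgeR adjusted p = 5.94e-07), on 24 UMIs in 13 cells, although Tcrg-C1 and Tcrg-C2 are near copies whose counts are uncertain. Over the alternatives the number of gamma-delta genes called as higher fell as low as 0. Cd4 stood at 45.3, 67.9, 51.9 and 47.6 CPM against 48.5, 44.2, 49.8 and 54.0 in the other cells (edgeR adjusted p = 0.605). The T cell receptor constant genes Trac (-1.14), Trbc1 (-0.73) and Trbc2 (-0.86), the other tested T cell markers, were all lower than in all other kept cells, in every alternative.

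The label of these cells as resting was checked with 4 transcripts of the response to the receptor: Nr4a1, Egr2, Tnfrsf9 and Il2. Of the 293 cells, 218 had a UMI of at least 1 of them. Every cell was also thinned to 2000 UMIs, since cells with more UMIs show more genes. At that depth 57.8%, 40%, 61.1% and 51.6% of Foxp3+ Gpr83+ cells had a response UMI (mean 52.6%, SD 9.30, n = 4), against 71.9%, 85%, 74.8% and 70.3% of Foxp3+ Gpr83- cells (unthinned 69.9%, 65%, 76.2% and 79.7% of Foxp3+ Gpr83+ cells). The share was lower in the Foxp3+ Gpr83+ cells in 4 of 4 libraries, by a mean of 22.9 percentage points (SD 14.9), with a two-sided exact permutation p of 0.125, the smallest that 4 pairs allow. Against all other kept cells the mean difference was -0.318 percentage points (exact permutation p = 0.875). By this measure the data thus go against a plain label of resting cells, and the cells are named by their 2 genes. The measure leans on Tnfrsf9, the most often detected of the 4 transcripts in every library. Tnfrsf9 is also counted below among effector regulatory genes.

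At equal depth, Tnfrsf9 and Nr4a1 differed from the other kept cells in opposite directions. Tnfrsf9, which encodes the costimulatory receptor 4-1BB, was detected in 48.2%, 25%, 50.8% and 42.2% of Foxp3+ Gpr83+ cells and in 16.3%, 14.0%, 13.5% and 14.0% of all other kept cells. Nr4a1, an early transcription factor whose level follows receptor signal strength, was detected in 20.5%, 15%, 22.2% and 18.8% of Foxp3+ Gpr83+ cells and in 40.2%, 44.0%, 41.8% and 41.9% of the other cells. The libraries of the 2 classes did not overlap for either gene. Jun was detected in 44.6%, 65%, 36.5% and 32.8% of Foxp3+ Gpr83+ cells and in 14.6%, 5%, 16.8% and 17.6% of Foxp3+ Gpr83- cells. No test was run on these single-gene shares.

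**Figure D1:**
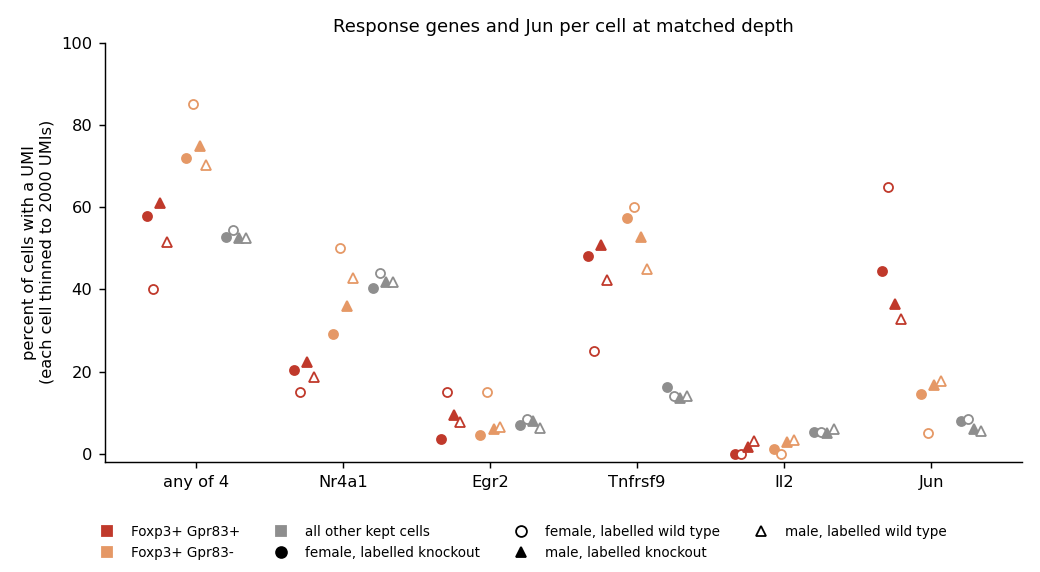
Share of cells (percent, y axis) with at least 1 UMI of a named gene after thinning every cell to 2000 UMIs, for Foxp3+ Gpr83+ cells, Foxp3+ Gpr83- cells and all other kept cells; each point is 1 library. Tnfrsf9 was detected in 25% to 50.8% of Foxp3+ Gpr83+ cells and in 13.5% to 16.3% of the other cells, while Jun was detected in 32.8% to 65% of Foxp3+ Gpr83+ cells and in at most 17.6% of Foxp3+ Gpr83- cells.

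Besides the 2 genes of the rule, 3 genes had marked these cells in earlier work on the same data, so their levels are given as a description. Izumo1r (ENSMUSG00000031933) stood at 551, 543, 416 and 476 CPM in the Foxp3+ Gpr83+ cells, at 154, 199, 170.4 and 121 in Foxp3+ Gpr83- cells and at 28.6, 22.5, 28.8 and 24.2 in all other kept cells. Itih5, which encodes a hyaluronan-binding secreted protein, stood at 176, 204, 164 and 169 CPM in the first class, at 26.1, 35.2, 23.4 and 40.7 in the second and at 3.34, 2.14, 2.86 and 2.18 in the rest. Ecm1, which encodes extracellular matrix protein 1, stood at 432, 460.4, 445 and 403 CPM in the first class, at 121, 41.1, 116 and 88.4 in the second and at 27.7, 18.7, 26.1 and 18.4 in the rest. For each gene the 3 classes kept the same order in all 4 libraries, without overlap between the Foxp3+ Gpr83+ cells and the Foxp3+ Gpr83- cells.

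Gpr83 and Izumo1r are neighbours on chromosome 9. In GENCODE M21 on GRCm38, Gpr83 spans chr9:14860210-14870789 on the plus strand and Izumo1r chr9:14885814-14903949 on the minus strand, a gap of 15024 bases between their 3′ ends. Panx1, farther along past Izumo1r (chr9:15002128-15045478), which encodes a membrane channel for ATP, was also higher in the Foxp3+ Gpr83+ cells than in all other kept cells. It stood at 32.7, 15.1, 39.8 and 22.8 CPM, where the other cells ranged from 9.64 to 12.02 (log2 fold change 1.40, SE 0.27, edgeR adjusted p = 2.94e-05), so the libraries did not overlap. On the other side, Mre11a (log2 fold change 0.19, edgeR adjusted p = 0.532) and Ankrd49 (-0.09, edgeR adjusted p = 0.709) did not pass the test. Piwil4, Fut4, Amotl1 and Hephl1, all within 250 kb of Gpr83, had no UMI in the 293 cells.

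The bases before the start sites of Gpr83, Itih5 and Ecm1 are shown because these 3 genes, on different chromosomes, marked the same cells. Each stretch is the 250 bases upstream of the RefSeq start in GRCm38.p6, written 5′ to 3′ on the strand of the gene: Gpr83 at chr9:14859960-14860209 (plus strand), Itih5 at chr2:10153293-10153542 (plus strand) and Ecm1 at chr3:95739570-95739819 (minus strand). Capitals mark the only match found in these 3 windows, an AP-1 motif (TGACTCA or its reverse complement) 64 bases before the start of Ecm1.
Gpr83: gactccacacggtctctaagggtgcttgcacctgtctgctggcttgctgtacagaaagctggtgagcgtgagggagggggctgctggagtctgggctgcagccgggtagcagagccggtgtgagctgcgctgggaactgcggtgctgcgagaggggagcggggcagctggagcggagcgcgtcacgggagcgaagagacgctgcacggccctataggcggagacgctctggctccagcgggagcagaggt
Itih5: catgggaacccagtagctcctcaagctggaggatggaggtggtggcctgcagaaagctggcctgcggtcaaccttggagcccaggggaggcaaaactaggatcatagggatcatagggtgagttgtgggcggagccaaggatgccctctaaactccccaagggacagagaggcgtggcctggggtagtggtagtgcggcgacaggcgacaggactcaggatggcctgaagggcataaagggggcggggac
Ecm1: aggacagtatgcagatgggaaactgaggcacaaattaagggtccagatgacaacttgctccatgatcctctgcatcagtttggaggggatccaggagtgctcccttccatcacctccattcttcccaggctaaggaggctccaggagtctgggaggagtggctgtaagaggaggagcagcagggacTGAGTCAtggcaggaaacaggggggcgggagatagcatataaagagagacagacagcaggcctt
Both strands were searched for a forkhead motif (TGTTTAC), a Runx motif (TGTGGT), a KLF motif (CCACCC), the AP-1 motif and an NFAT motif (GGAAAA). Of 32851 promoter windows of this length 3.17% held the forkhead letters, 14% the Runx, 28.1% the KLF, 4.46% the AP-1 and 20.4% the NFAT letters. The Izumo1r window (chr9:14903768-14904017, minus strand) overlaps the first exon of GENCODE transcripts and is not printed. It held the KLF letters at 2 places, 151 and 15 bases before the RefSeq start, and the Runx letters 127 bases before it. A match is a description of letters and not of a bound factor.

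Compared with all other kept cells, the Foxp3+ Gpr83+ cells had higher levels of all 18 tested genes of the regulatory T cell identity list, of which Izumo1r, Itih5 and Ecm1 had been chosen on these cells. Interleukin 2 receptor chains, tumour necrosis factor receptor family members and Ikzf2 were among the genes that were higher, while helper cytokines, Il7r and ribosome biogenesis genes were lower. Counts were summed per class and library and tested with library as a block. Of 10373 genes tested, 2950 (28.4%) had an edgeR adjusted p under 0.05, 1353 higher (13%) and 1597 lower (15.4%) in the Foxp3+ Gpr83+ cells. Members were shallower, with medians of 3773, 5987.5, 5092 and 6728.5 UMIs per cell against 5119, 8437, 6762 and 9690. With a single comparison cell per member, matched in depth within each library, 906 of 5313 genes tested were called. Matching thus changed depth and the size of the comparison pool together.

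Among identity genes the median log2 fold change was 3.18, against -0.03 over all genes tested. Ikzf2 was at 1604, 1343, 1373 and 869 CPM against 101, 46.7, 77.8 and 46.8 in the other cells (log2 fold change 4.09, SE 0.10, edgeR adjusted p = 1.22e-38), and 264 of the 293 cells had an Ikzf2 UMI. Lrrc32 encodes GARP, the surface anchor of latent TGF-beta on regulatory T cells. It was at 327, 279, 335 and 333 against 19.2, 6.92, 16.8 and 9.4 (log2 fold change 4.45, SE 0.14, edgeR adjusted p = 1.08e-32), so the libraries did not overlap between classes. Tnfrsf4 (OX40) was higher by a log2 fold change of 2.34 and Tnfrsf18 (GITR) by 2.07 (edgeR adjusted p = 8.75e-33 and 1.96e-28). Ctla4, the inhibitory receptor for CD80 and CD86, was higher by 3.16, and Nt5e, the ectoenzyme CD73 that makes adenosine, by 2.57 (edgeR adjusted p = 1.23e-27 and 3.01e-13). Entpd1 (CD39) and Itgae (CD103), the remaining list genes, fell below the filter on low counts, with UMIs in 8 and 2 of the 293 cells. Flicr, a noncoding RNA that overlaps Foxp3, reached 15.1, 60.4, 22.9 and 19.0 CPM but cannot be told apart from reads of the rule gene.

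The genes with the largest differences included list members and other genes. Kcnj15, a potassium channel subunit, was at 37.7, 30.2, 50.7 and 55.2 CPM against 2.04, 0.566, 0.94 and 0.98 (log2 fold change 5.18, edgeR adjusted p = 3.89e-16). Mcub, a subunit of the mitochondrial calcium uniporter that lowers its conductance, was higher by a log2 fold change of 4.51, and Wls, which escorts secreted Wnt proteins, by 4.21 (edgeR adjusted p = 2.47e-15 and 3.12e-21). Tube1 and Lamc1 were higher by 4.10 and 4.05. The integrin chain Itgb8, a gene of the effector list, which activates latent TGF-beta, was at 95.5, 67.9, 89.3 and 36.1 against 4.97, 1.7, 3.87 and 2.13 CPM (log2 fold change 4.29, SE 0.28, edgeR adjusted p = 6.51e-19). It was detected in 77 of the 293 cells. Among the lowest genes were the haemoglobin and immunoglobulin genes Hbb-bs, Jchain, Hba-a2 and Igkc, which other cells in the comparison pool carry. Hbb-bs and Hba-a2 belong to the erythroid markers given above. The 293 cells had 1, 1, 1 and 10 UMIs of them, and all 4 calls were lost without the library block.

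Within the interleukin 2 pathway the alpha and beta receptor chains were higher. Il2ra, the alpha chain CD25, was at 1451, 1177, 1322 and 1254 CPM against 349, 359.7, 318 and 302 (log2 fold change 1.82, SE 0.08, edgeR adjusted p = 4.79e-26), and Il2rb, the signalling beta chain, at 412, 294, 368 and 358 against 43.1, 34.4, 34.9 and 25.6 (log2 fold change 3.27, SE 0.12, edgeR adjusted p = 2.44e-30). The shared chain Il2rg and the kinase Jak1 did not pass the test (log2 fold change -0.04 and 0.08). Of 12 tested pathway genes 8 were higher and none lower, with a median of 0.90. Among them were the feedback inhibitors Socs2 (4.80), Cish (1.08), Socs1 (0.85) and Socs3 (1.30), all targets of cytokine signalling through STAT proteins, and the call of Socs3 was lost after thinning and with depth matched. Socs2 was at 118, 189, 136 and 129 CPM and did not overlap the other cells, at 8.55, 1.95, 5.87 and 2.22. Il2 itself was lower, with 0, 0, 57.9 and 5.71 CPM in the Foxp3+ Gpr83+ cells and 107, 127, 108 and 108 in the others (log2 fold change -2.29, SE 0.27, edgeR adjusted p = 6.73e-10). Its male labelled knockout value rests on 48 UMIs, of which 26 lay in 1 cell. With depth matched the log2 fold change of Il2 was -0.81 and not called (edgeR adjusted p = 0.282).

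Helper cytokine and costimulatory ligand genes were mostly lower: of 13 tested, 10 were lower and 1 was higher. The median log2 fold change was -2.29. With comparison cells matched in depth 6 list genes were tested, 2 were lower and 1 was higher, with a median of -0.70. Cd40lg, the ligand by which helper T cells activate B cells, was at 10.1, 52.8, 16.9 and 7.61 CPM against 71.1, 79.1, 67.7 and 70.3 (log2 fold change -2.33, SE 0.24, edgeR adjusted p = 2.15e-11), and Tnfsf11 (RANKL) at 52.8, 0, 48.3 and 13.3 against 173, 232, 181 and 165 (log2 fold change -2.51, SE 0.20, edgeR adjusted p = 1.33e-15). Tnf and Csf2 were lower, with log2 fold changes of -0.93 and -2.58, and the call of Tnf was lost with depth matched (-0.59, edgeR adjusted p = 0.0809). The exception was Lta, lymphotoxin alpha, at 133, 113, 128 and 204 against 45.8, 51.4, 44.9 and 66.7 CPM (log2 fold change 1.35, SE 0.13, edgeR adjusted p = 2.22e-12), higher in every library. No UMI of Il13, Il5, Il21, Il22 or Il3 was found in the 293 cells.

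Early receptor response genes were mixed, with 6 of 26 tested higher and 13 lower (median -0.38). Jun stood apart, at 362, 626, 300.4 and 283 CPM against 47.8, 46.8, 35.5 and 27.4 (log2 fold change 3.07, SE 0.12, edgeR adjusted p = 2.06e-29), and was detected in 162 of the 293 cells. The NF-kappaB members Rel and Nfkbia and the AP-1 member Junb were higher by smaller log2 fold changes of 0.36, 0.61 and 0.50. Lower were Cd69, at 533, 755, 507 and 805 against 1319, 1434, 1410.3 and 1446 CPM (log2 fold change -1.32, SE 0.08, edgeR adjusted p = 7.41e-20), and the orphan receptors Nr4a1 (-0.77), Nr4a2 (-1.35) and Nr4a3 (-0.42). The call of Rel was lost in 2 alternatives and that of Nr4a3 in 3. Egr1 (0.04) and Egr2 (-0.13) did not pass the test. Irf4, which rises with receptor signal, was lower, with a log2 fold change of -1.08 (edgeR adjusted p = 6.32e-14).

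Growth genes were lower nearly throughout: of 22 genes of ribosome biogenesis and metabolism 20 were lower and none higher, with a median of -0.77. Nucleolin (Ncl) stood at 2846, 2030.3, 2663 and 2506 CPM against 4109, 4189, 4013 and 4032 (log2 fold change -0.86, SE 0.07, edgeR adjusted p = 2.35e-16), and the chaperone gene Hspd1 at 443, 294, 479 and 407 against 772, 757, 768 and 744 (log2 fold change -1.02, SE 0.09, edgeR adjusted p = 1.59e-13). Pkm (-0.20) and Slc2a1 (0.24) did not pass the test. The members held fewer UMIs per cell than the comparison cells, by the medians given above, and with depth matched 14 of the 22 were lower and none higher, with a median of -0.43. Ncl then stood at -0.54 and Hspd1 at -0.62, both still called. Proliferation genes had no common direction over the libraries. Of 11 tested, Top2a, Ccnb1 and Birc5 were called as higher and Pcna as lower, but Top2a had 2, 0, 52 and 1 UMIs, Ccnb1 1, 0, 18 and 1 and Birc5 0, 0, 19 and 0. The median over the 11 genes was 2.27 in the male library labelled knockout and -1.67, -5.12 and -1.62 in the female labelled knockout, female labelled wild type and male labelled wild type libraries. Without the male library labelled knockout none was higher, 4 were lower and the median was -0.57.

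Resting and recirculation genes split into opposite directions, with 9 of 22 tested higher and 9 lower. Among the higher were the quiescence factor Klf2, at 355, 438, 408 and 434 against 235, 183, 247 and 222 CPM (log2 fold change 0.68, SE 0.10, edgeR adjusted p = 2.47e-07), Lef1 (0.65), Bcl2 (0.57) and the egress receptor S1pr1 (0.61). Lower were Il7r, the interleukin 7 receptor, at 27.7, 15.1, 35.0 and 79.9 against 95.8, 99.7, 119 and 170.2 (log2 fold change -1.69, SE 0.17, edgeR adjusted p = 5.4e-12), Ccr7 (-1.13), Tcf7 (-1.11) and Satb1 (-1.31). Naive conventional T cells carry high Il7r, and regulatory T cells are known for low levels of it. With depth matched, 1 list gene was higher, Lef1 moved to 0.27 and Klf2 to 0.25 without a call, and the calls of Bcl2 and S1pr1 were lost.

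Interferon response genes were higher in 19 of 25 tested and lower in none, with a median of 1.02. Ifi27l2a stood at 1086, 1442, 1003 and 915 against 459, 348, 376 and 255 CPM (log2 fold change 1.45, SE 0.09, edgeR adjusted p = 4.29e-20) and Usp18, a negative regulator of the interferon receptor, at 111, 98.1, 59.1 and 22.8 against 25.4, 18.2, 18.3 and 7.23 (log2 fold change 1.78, SE 0.20, edgeR adjusted p = 1.37e-10). After thinning to 2000 UMIs a Foxp3+ Gpr83+ cell held a median of 13, 12, 10.5 and 11.5 UMIs of the list and another kept cell 5, 5, 5 and 3. With depth matched, 11 genes were higher and 2 lower. Of 19 tested effector regulatory genes 10 were higher and 2 lower (Irf4 and S100a4), among them Tnfrsf9 (1.95), Batf (1.25), Maf (1.27) and Lgals1 (1.66). With depth matched 8 were tested, 6 higher and 1 lower. The call of Maf was lost by DESeq2 and without the male library labelled knockout, and that of S100a4 in 4 alternatives.

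**Figure D2:**
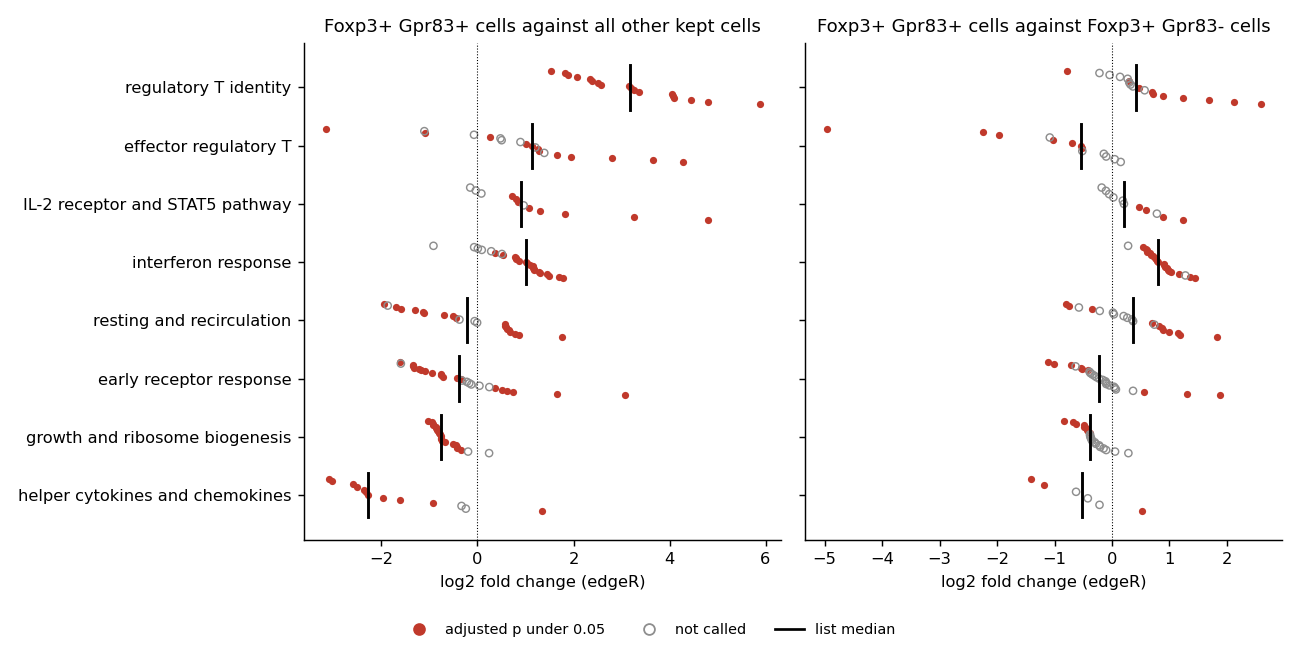
Log2 fold change of each tested gene (x axis) in 8 gene lists (y axis), for Foxp3+ Gpr83+ cells against all other kept cells and against Foxp3+ Gpr83- cells; red points passed an edgeR adjusted p of 0.05, open grey points did not, and the black line is the list's median. Identity genes all lie above 0 against the other cells, with a median of 3.18, and growth genes have medians of -0.77 and -0.37.

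**Figure D3:**
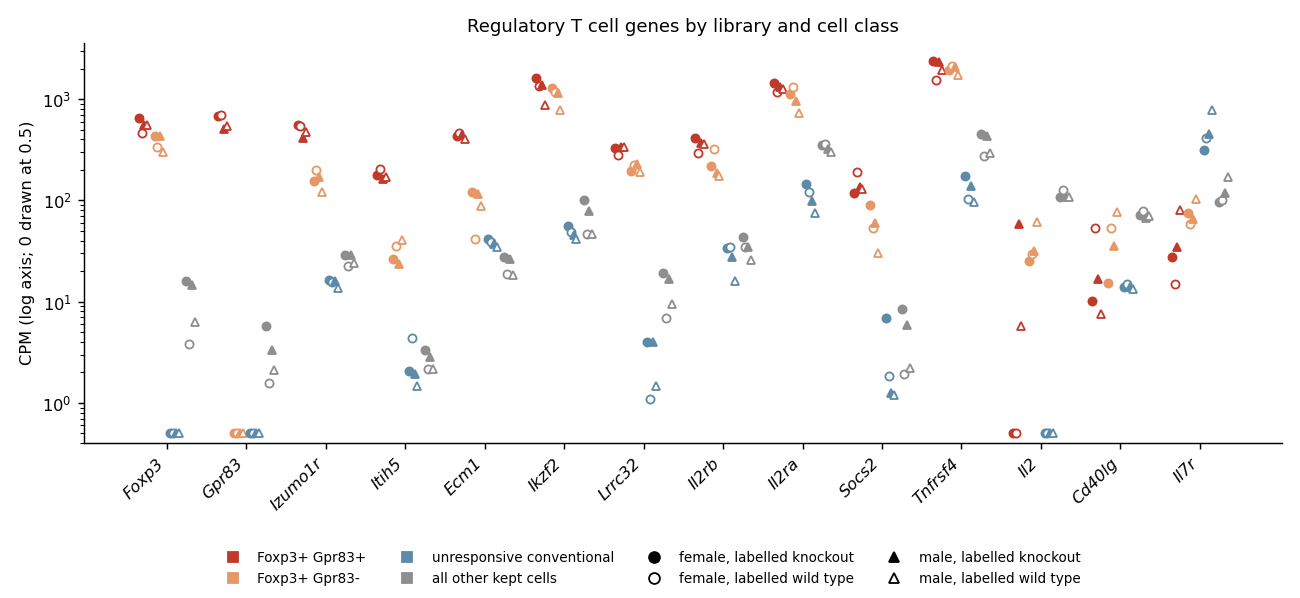
Level of 14 genes (CPM on a log axis, with 0 drawn at 0.5) in 4 classes of cells; each point is 1 library, filled for labelled knockout and open for labelled wild type, circles for female and triangles for male. Izumo1r, Itih5 and Ecm1 are highest in the Foxp3+ Gpr83+ cells in every library, while Ikzf2 and Tnfrsf4 are high in both Foxp3+ classes.

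The closest cells were the 503 Foxp3+ cells without a Gpr83 UMI, at 178, 20, 214 and 91 per library. Against them the Foxp3+ Gpr83+ cells had more S1pr1, Klf2, Lef1 and Bcl2, of the interferon list and of Jun, and less of the effector genes Maf, Pdcd1, Batf, Rora and S100a4. Jun was not typical of the early receptor response list, of which 3 of 25 tested genes were higher and 6 lower (median -0.22). The identity genes Tnfrsf4, Tnfrsf18 and Nrp1 did not pass the test. Of 6428 genes tested 656 (10.2%) were called, 418 higher (6.5%) and 238 lower (3.7%). The comparison cells were deeper, with medians of 5440.5, 8088, 6132.5 and 8613 UMIs. Depth matching took a single comparison cell per member and left 322 calls among 5423 genes tested. In the female library labelled wild type it took all 20 comparison cells, so depth there was unchanged. In the male library labelled wild type it took 64 of 91. Without the male library labelled wild type 192 genes were called, and without the male library labelled knockout 317.

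Other markers moved with the Gpr83 split. An Ikzf2 UMI was found in 88.0%, 90%, 92.1% and 89.1% of Foxp3+ Gpr83+ cells and in 71.3%, 65%, 62.1% and 58.2% of Foxp3+ Gpr83- cells (10.7%, 8.86%, 10.1% and 7.20% of all other kept cells). The summed B cell markers ranged from 131 to 317 CPM in the Foxp3+ Gpr83- cells against 51.4 to 158. The part of either in the differences was not tested. Of 18 tested identity genes 9 were higher, 1 lower (Cd81, -0.78) and 8 not called, with a median of 0.42 against -0.01 over all genes. The 9 include Itih5, Ecm1 and Izumo1r, which had been chosen on these cells. The other genes called as higher were Il2rb (0.89), Il2ra (0.47), Socs2 (1.24), Lrrc32 (0.70), Capg (0.71) and Ikzf2 (0.29). Il2rb stood at 412, 294, 368 and 358 CPM against 219.9, 323, 187 and 174 (edgeR adjusted p = 5.97e-05), with the classes in reverse order in the female library labelled wild type. The Ikzf2 call was lost in 7 alternatives, those of Capg and Cd81 in 4 each and that of Il2ra in 2. Cd81 moved as far as -0.27.

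The resting and recirculation list was split, with 8 of 20 tested genes higher, 3 lower and 9 not called (median 0.36). Of the higher genes, S1pr1 stood at 67.9, 128, 86.9 and 89.4 CPM in Foxp3+ Gpr83+ cells and at 43.3, 35.2, 43.4 and 29.1 in Foxp3+ Gpr83- cells (log2 fold change 1.18, SE 0.20, edgeR adjusted p = 0.000175), Klf2 at 355, 438, 408 and 434 against 212, 117, 266 and 193 (log2 fold change 0.99, SE 0.14, edgeR adjusted p = 2.25e-05) and Lef1 at 251, 362, 262 and 327 against 160.4, 88.0, 143 and 114 (log2 fold change 1.15, SE 0.16, edgeR adjusted p = 1.05e-05). No library of the first class overlapped the second for these 3 genes. Lower were Il7r (-0.79), Ccr7 (-0.75) and Satb1 (-0.35). The calls of S1pr1, Klf2, Lef1 and Bcl2 held in every alternative, while that of Il7r was lost in 4, that of Satb1 in 5 and that of Ccr7 in 1.

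Ly6c1, an antigen of circulating lymphocytes, was at 279, 430.2, 267 and 409 against 55.0, 64.5, 74.2 and 135 CPM (log2 fold change 2.01, SE 0.15, edgeR adjusted p = 6.05e-10). Rabgap1l, a regulator of membrane traffic, was at 357, 460.4, 340.2 and 310.1 against 91.0, 111, 86.2 and 91.9 (log2 fold change 1.98, SE 0.13, edgeR adjusted p = 9.41e-11), and Jun at 362, 626, 300.4 and 283 against 80.2, 11.7, 126 and 104 (log2 fold change 1.88, SE 0.22, edgeR adjusted p = 1e-06). Each of these 3 genes separated the classes without overlap. Tmem64, Atp1b1, Ppm1l, Zscan29, Zfp608, Abhd18, Gm13546 and Gata1 were higher by log2 fold changes of 1.90 to 2.41, and the call of Gm13546 was lost in 1 alternative. Atp1b1 encodes a subunit of the sodium pump and Ppm1l a protein phosphatase. Rgs1, which dampens chemokine receptor signalling, was higher by 1.10 (edgeR adjusted p = 8.48e-07), at 425, 468, 379 and 459 against 199, 223, 226 and 183 CPM.

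Effector genes were lower as far as they were called, with 7 of 13 tested lower and none higher (median -0.54; 4 lower without the male library labelled wild type and 11 without the female). Maf, a factor of interleukin 10-producing and follicular T cells, was at 40.2, 0, 54.3 and 9.51 CPM against 169, 352, 166 and 113 (log2 fold change -2.24, SE 0.26, edgeR adjusted p = 8.48e-07), and the inhibitory receptor Pdcd1 (PD-1) at 10.1, 7.55, 16.9 and 5.71 against 51.4, 41.1, 40.1 and 55.8 (log2 fold change -1.96, SE 0.32, edgeR adjusted p = 0.000112). S100a4 gave 1 UMI in the 293 cells and 26.1, 29.3, 18.0 and 25.6 CPM in the Foxp3+ Gpr83- cells (edgeR adjusted p = 2.66e-05). Rora, Batf, Tnfrsf9 and Irf4 were lower, with log2 fold changes of -1.02, -0.70, -0.54 and -0.52. The calls of Batf and Irf4 were lost in 3 alternatives each and that of Tnfrsf9 in 1. Lilrb4a, an inhibitory receptor whose near copy Lilr4b makes its counts uncertain, had 5 UMIs in the 293 cells against 46.0, 29.3, 43.4 and 16.3 CPM (edgeR adjusted p = 4.65e-06). Cxcl10, S100a6, Penk, Ttc39c, Nav2, Atp2b4 and Gpr171 were lower, with log2 fold changes of -2.52 to -1.68, and the calls of S100a6 and Nav2 were lost in 2 alternatives and that of Penk in 1.

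Interferon response genes were higher in 21 of 23 tested, with a median of 0.80 and none lower. Ifi206 stood at 121, 219, 111 and 143 against 55.0, 58.7, 38.8 and 57.0 CPM (log2 fold change 1.44, SE 0.17, edgeR adjusted p = 8.48e-07), Zbp1, a sensor of Z-form nucleic acids, at 194, 294, 141 and 166 against 111, 64.5, 94.2 and 67.5 (log2 fold change 1.03, SE 0.17, edgeR adjusted p = 0.000121), and Gbp2, a guanylate-binding protein, at 827, 883, 755 and 1037 against 506, 364, 572 and 608 (log2 fold change 0.77, SE 0.11, edgeR adjusted p = 3.26e-05). Summed over the list, levels were 5504, 7751, 4828 and 5664 CPM in Foxp3+ Gpr83+ cells, 4030, 3320, 3799 and 3083 in Foxp3+ Gpr83- cells and 7198, 8186, 7093 and 6381 in conventional cells without a response UMI. The Foxp3+ Gpr83+ cells thus lay between the others in every library. Of the list, 5 genes were called without the male library labelled wild type, 11 after thinning, 12 by DESeq2 and 14 with matched depth. Growth genes were lower in 9 of 22 and higher in none (median -0.37; 5 lower with matched depth and 3 without the male library labelled wild type), with Odc1, the first enzyme of polyamine synthesis, at 581, 355, 659.9 and 529 against 915, 997, 971 and 1207 (log2 fold change -0.84, SE 0.12, edgeR adjusted p = 1.8e-05).

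**Figure D4:**
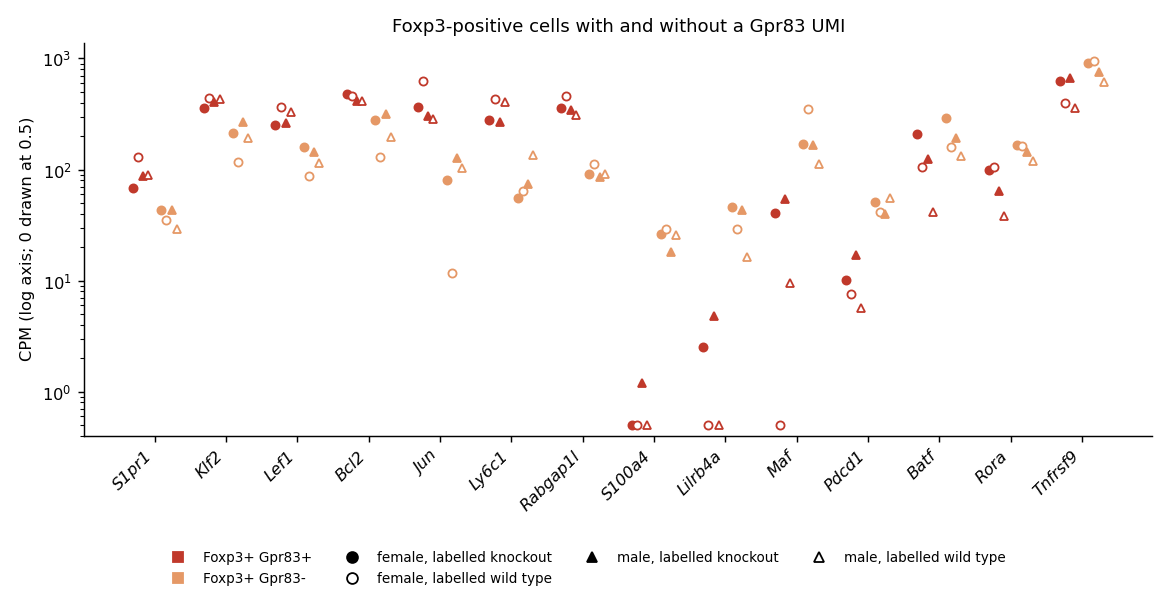
Level of 14 genes (CPM, log axis, 0 drawn at 0.5) in Foxp3+ Gpr83+ cells and Foxp3+ Gpr83- cells; each point is 1 library, filled for labelled knockout and open for labelled wild type, circles for female and triangles for male. Jun, Ly6c1 and Rabgap1l are higher in the Foxp3+ Gpr83+ cells in all 4 libraries, and Maf, S100a4 and Pdcd1 are lower.

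Another comparison set the Foxp3+ Gpr83+ cells beside 4915 conventional CD3+ cells with neither Foxp3 nor Gpr83 and without a UMI of the 4 response genes, which have similar depth (medians of 3664.5, 5752, 4696.5 and 6333 UMIs). Of 8436 genes tested 1801 (21.3%) were called, 936 higher (11.1%) and 865 lower (10.3%). All 18 tested identity genes were higher (median 3.57 against -0.02 over all genes), among them Izumo1r, Itih5 and Ecm1, which had been chosen on these cells. The comparison cells were chosen by the absence of the response genes, and the Foxp3+ Gpr83+ cells were not. The 75 Foxp3+ Gpr83+ cells without a response UMI were therefore compared with the same cells as well. That comparison called 539 of 7933 genes (6.79%), 223 higher (2.81%) and 316 lower (3.98%).

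Among cells without a response UMI 16 of 18 identity genes were higher, again with Izumo1r, Itih5 and Ecm1 among them, and none lower. The median was 3.28, against -0.19 over all genes. Ikzf2 differed by a log2 fold change of 4.18, Lrrc32 by 6.62, Il2rb by 3.76, Il2ra by 2.82 and Tnfrsf4 by 2.16 (largest edgeR adjusted p = 2.12e-27). Jun was higher by 2.40 and Lta by 2.80 (edgeR adjusted p = 1.84e-28 and 3.66e-14). Their lists did not move with them. Of 22 tested early receptor response genes 2 were higher and 5 lower (median -0.10). Of 5 tested helper genes 1 was higher and 0 lower (median -0.14).

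Other genes of quiescent T cells were lower than in these conventional cells. Against all 4915 cells 19 of 22 resting and recirculation genes were lower and 1, Foxo1, was higher (a call lost in 7 alternatives), with a median of -0.86. Il7r was at 27.7, 15.1, 35.0 and 79.9 CPM against 316, 413, 449 and 780.2 (log2 fold change -3.68, SE 0.14, edgeR adjusted p = 4.84e-21), and Tcf7 at 52.8, 45.3, 59.1 and 98.9 against 219, 239, 228 and 317 (log2 fold change -2.05, SE 0.13, edgeR adjusted p = 1.56e-14). Restricted to cells without a response UMI, 8 of 21 were lower and none higher, among them Il7r (-2.91), Tcf7 (-2.79), Ccr7 (-1.70) and Satb1 (-1.70). Klf2 (0.03), Lef1 (0.22) and Bcl2 (0.01) did not pass the test there. The direction of the growth list depended on the choice of cells. Against all 4915 cells 16 of 22 growth genes were higher and none lower (median 0.46; 4 higher and 1 lower of 21 with matched depth), whereas in the restricted comparison 15 were lower and none higher (median -0.97), where 62.4% of all tested genes were negative. The 75 cells without a response UMI had medians of 2917, 4209, 3651.5 and 5285 UMIs and the conventional cells of 3664.5, 5752, 4696.5 and 6333, and the part of depth in the restricted comparison was not tested.

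The interferon list had no stable direction in this comparison. Against all unresponsive conventional cells 4 of 24 genes were higher and 11 lower (median -0.35), and the restricted comparison had 3 higher and 1 lower (median 0.32). With depth matched the first count was 4 higher and 5 lower (median 0.03), and in the female library labelled wild type 13 of 24 genes were positive (median 0.14). Isg20 was higher in both (1.95 and 1.96, edgeR adjusted p = 1.56e-09 and 0.000473). Among the lowest genes relative to the unresponsive conventional cells were Pde3b, a phosphodiesterase of cyclic nucleotides, at 2.51, 7.55, 7.24 and 19.0 against 114, 146, 126 and 119 CPM (log2 fold change -3.81, SE 0.25, edgeR adjusted p = 1.48e-14), and Als2cl, at 10.1, 0, 3.62 and 1.9 against 58.8, 70.0, 65.0 and 57.0 (log2 fold change -3.98, SE 0.33, edgeR adjusted p = 9.15e-12). The chemokine Ccl5 and the filamin-binding Rflnb were lower, with log2 fold changes of -3.38 and -3.13.

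Within the 293 cells the Gpr83 level moved with several genes, given here as a description because Gpr83 belongs to the rule. Cells with 1, 2 or 3, and at least 4 Gpr83 UMIs numbered 71, 107 and 115, at medians of 5708, 5292 and 4865 UMIs. Over these strata Itih5 went from 68.0 to 142 and 267 CPM and Izumo1r from 308 to 485 and 562. Tnfrsf4 went from 2703 to 2443 and 1533, and the share of cells with a response UMI from 85.9% to 74.8% and 67.0%. Between cells with 1 to 3 and with at least 4 Gpr83 UMIs, Lef1, Itih5, Il2rb and the summed interferon list were higher with more Gpr83 in 4 of 4 libraries. Tnfrsf4 was lower in 4 of 4, while Izumo1r was higher in 3 of 4 and Ikzf2 in 2 of 4.

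The presence of a response UMI split the cells along other genes. The 218 cells with one had a median of 5876 UMIs and the 75 without one 3657, so depth differed between them. Tnfrsf4 stood at 2708, 1875, 2566 and 2225 CPM with and at 839.5, 549, 785 and 485 without a response UMI, and Irf4 at 509, 321, 349 and 445 and 27.1, 61.0, 152 and 48.5. Both genes were higher with a response UMI in every library. Ikzf2 was at 1683, 1294, 1442 and 923 with and 1259, 1495, 986 and 582 without, and Il2rb at 408, 291, 345 and 354 and 433, 305, 497 and 376. Pooled over the libraries, Nt5e stood at 39.5 with and 127 without, Itih5 at 145 and 303, and Ecm1 at 397 and 608. No test was made on these strata.

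The study compared genotypes, and the share of Foxp3+ Gpr83+ cells was compared first. It was 1.34% (exact 95% binomial interval 1.07 to 1.66), 1.10% (0.675 to 1.70), 1.93% (1.61 to 2.29) and 1.40% (1.08 to 1.79) of kept cells. The intervals cover counting error only. Labelled knockout averaged 1.63% (SD 0.412, n = 2) and labelled wild type 1.25% (SD 0.212, n = 2), a difference of 0.382 percentage points with an exact permutation p of 0.667. With 2 libraries against 2 the smallest possible p is 0.333, so no share can pass the threshold. After thinning to 2000 UMIs the shares were 0.761%, 0.496%, 0.703% and 0.460%, with both libraries labelled knockout above both labelled wild type. Among cells with at least 3000 UMIs the difference was 0.118 percentage points, and the female library labelled knockout (0.962%) lay below its wild type counterpart (1.13%).

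Among Foxp3+ cells the Gpr83+ share was 31.8% (exact 95% binomial interval 26.2 to 37.8), 50% (33.8 to 66.2), 37.1% (31.9 to 42.4) and 41.3% (33.5 to 49.5). The Foxp3+ cells numbered 261 of 6178, 40 of 1814, 340 of 6543 and 155 of 4565 kept cells, and the share depends on this denominator too. Both libraries labelled knockout lay below both labelled wild type, at a mean of 34.4% (SD 3.72) against 45.6% (SD 6.16), with an exact permutation p of 0.333. The libraries labelled wild type were deeper within each sex. After thinning to 2000 UMIs the shares were 31.8%, 52.9%, 25.7% and 29.2%, and the groups overlapped.

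Gene by gene, 1 of 5577 genes tested within the Foxp3+ Gpr83+ cells differed between genotypes (0.0179%) by edgeR with sex in the model, and 250 had an unadjusted p under 0.05. That gene was Sp110, with the values given above (log2 fold change -7.42, SE 0.56, edgeR adjusted p = 0.002). The zero of the female library labelled knockout makes its fold change no bound. In all other kept cells Sp110 stood at 0.355, 102, 0.491 and 84.0 CPM. Sp140 stood at 0, 113, 3.62 and 64.7 in the Foxp3+ Gpr83+ cells (edgeR adjusted p = 0.0986) and Csprs at 10.1, 0, 4.83 and 0. The part of Sp110 and Sp140 in the other differences between the labels was not tested. DESeq2 also called 1 gene. Calls depended on single libraries, with 0 without the male library labelled knockout, 65 without the female and 57 without the male library labelled wild type.

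None of the identity genes passed this test, and at most 2 did over the alternatives. Ikzf2 was called with the stricter rule and without the female library labelled wild type. Ikzf2 (0.42), Il2ra (0.12), Lrrc32 (0.04), Izumo1r (-0.16) and Ecm1 (-0.00) all missed the threshold, with standard errors of 0.14, 0.12, 0.17, 0.15 and 0.17. The female library labelled wild type gave 20 cells. In the fit over both sexes the 10 tested effector genes had positive log2 fold changes (median 0.71) with 0 called, while 8 of 10 were positive in females and 9 in males. Up to 6 were called as higher over the alternatives, without the female library labelled wild type, and 2 as lower without the male library labelled wild type. Of 20 tested resting genes 18 had negative log2 fold changes (median -0.27) with 0 called.

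Interferon response genes were compared between genotypes in both classes. Within the Foxp3+ Gpr83+ cells 22 of 23 tested list genes had negative log2 fold changes, labelled knockout relative to labelled wild type, with a median of -0.50, where 49.7% of all tested genes were negative. None passed the test. Over the alternatives the median ran from -0.93 to -0.24, and calls of list genes occurred in both directions. In all other kept cells, a comparison added after seeing the data in which 244 of 12819 genes were called (1.9%), all 25 had positive fold changes, with a median of 0.29. Of these 8 were called as higher and 0 as lower, where 1.19% of all genes were called as higher and 0.718% as lower. The calls were not stable: over 10 alternatives 0 to 8 of the 25 were called, with 0 without the sex term and without 3 of the 4 libraries in turn, the male library labelled knockout being the exception with 1. Without the male library labelled wild type 14 of 25 were negative (median -0.04). Other lists moved with the label in those cells too: 12 of 20 regulatory identity genes were higher (19 positive, median 0.51), 5 of 9 B cell markers were higher (median 0.91), all 3 innate-like T markers were higher and all 5 tested erythroid markers were lower. Each of these counts was also smaller in some alternatives, with 0 to 11 identity genes called. Their part in the interferon difference was not tested. The difference between the 2 genotype effects called 36 of 11275 genes (0.319%; 659 with an unadjusted p under 0.05), and 6 of 25 interferon genes were called as lower (lower calls, 0.169%), with a median of -0.74. These 6 calls were lost by DESeq2 and after thinning, where the median was -0.23.

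Ifit3 stood at 30.2, 166, 24.1 and 47.6 CPM in the Foxp3+ Gpr83+ cells and at 37.0, 19.6, 27.0 and 12.8 in all other kept cells (log2 difference of effects -2.53, SE 0.41, edgeR adjusted p = 4.63e-06). The female library labelled wild type was highest in the former class and below its knockout counterpart in the latter. Slfn1 stood at 241, 408, 194 and 283 and 282, 233, 265 and 197 in the 2 classes (log2 difference -0.91, SE 0.19, edgeR adjusted p = 0.00204). Isg15 stood at 181, 264, 107 and 122 and 99.9, 71.6, 61.5 and 32.2 (-1.01, SE 0.24, edgeR adjusted p = 0.0124), and it had the opposite sign, 0.19, after thinning. Within each sex, 1 of 23 genes was positive in females (median -0.69) and 3 in males (median -0.38). Without the female library labelled wild type 17 of 23 were negative, and after thinning 14 of 20 were.

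**Figure D5:**
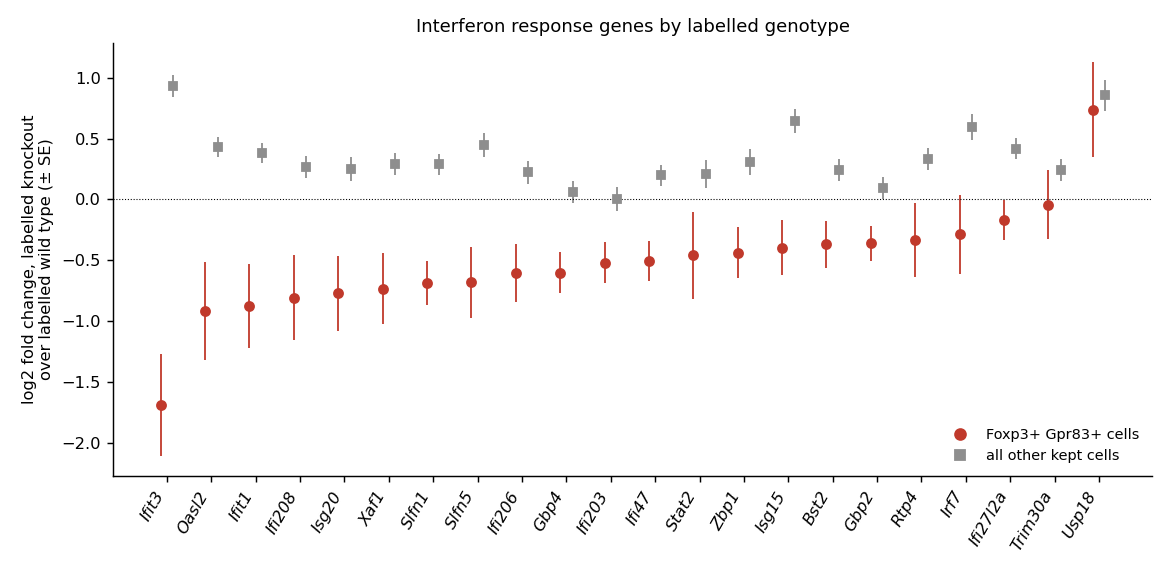
Log2 fold change of labelled knockout over labelled wild type (y axis, bars are standard errors) for named interferon response genes (x axis), within Foxp3+ Gpr83+ cells and within all other kept cells. All points of the Foxp3+ Gpr83+ cells except that of Usp18 lie below 0, and none passed an edgeR adjusted p of 0.05.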

How the data were processed

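Gene expression of sorted splenic CD4 T cells was measured with 10x Genomics Single Cell 3′ v3.1 chemistry in 4 libraries, 1 of each sex for each genotype label. The deposited matrices hold raw UMI counts of 32285 genes per barcode. Per the submitters' processing notes the authors used Cell Ranger 6.0.2 and build mm10, while the file headers name Cell Ranger version 4. The members and gene lists were chosen with earlier results of these data known. Cells were filtered and selected by the rule in the opening, and their counts were summed per library and class. These sums were tested with edgeR 4.0.16 (quasi-likelihood, TMM scaling, its filter on low counts, Benjamini-Hochberg adjustment over all genes, threshold 0.05) in R 4.3.3, with library as a block between classes and sex as a term between genotypes. The 5 genes of the rule were left out of tests. Levels in CPM are not TMM-scaled. The tests were tried on simulated data. Single values were compared by two-sided exact permutation tests (scipy 1.17.1).

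Named genes were those with an adjusted p under 0.05, the same direction in every library (or in both sexes) and a mean of at least 20 CPM in the higher group. The 12 largest in each direction were taken, and the label genes, list members and Irf5, Sp110, Sp140 and Csprs were added. Rgs1, Cd4, Panx1 and the other neighbours of Gpr83 fall outside the rule and were chosen after their values were seen or by position. Alternatives were DESeq2 1.42.0, no filter, thinning to 2000 UMIs, a stricter member rule, matched depth, other model terms, removal of the highest doublet scores (scanpy 1.11.5, 0.8% per 1000 cells) and leaving out each library. Matched depth took a single comparison cell per member, nearest in UMIs and without reuse, so fewer genes were tested. Against the Foxp3+ Gpr83- cells of the female library labelled wild type it left depth unchanged. Doublets were otherwise kept. Coordinates are from GENCODE M21, in which 99.6% of the gene identifiers matched, and promoters from RefSeq. Some named genes are counted in their lists but not reported here.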

Additional observations from a re-analysis of the deposited data

Results flagged for a closer look

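For 24 named genes the genotype effect in the Foxp3+ Gpr83+ cells differed from that in all other kept cells, by an edgeR interaction test with an adjusted p under 0.05. Values are log2 effects, labelled knockout over labelled wild type, in the Foxp3+ Gpr83+ cells minus those in the other cells. None of these calls held by DESeq2 or after thinning to 2000 UMIs.

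Positive differences included cell cycle genes whose UMIs lay in very few cells. Ube2c (11.7) had 53 UMIs, 41 of them in 1 cell of the male library labelled knockout. Hist1h1b (11.6) had 38 UMIs, all in 1 cell of that library. Top2a (4.33) had 55 UMIs with 28 in 1 cell, and Cks2 (1.98) had 75 UMIs with 19 in 1 cell. Fitted values of genes at 0 in a library are no bound. Il2 (3.15) and Tnfsf11 (2.31) are helper T cell genes, and 26 of 51 Il2 UMIs and 18 of 68 Tnfsf11 UMIs lay in 1 cell. Asns (2.3) and Psph (1.19), enzymes of asparagine and serine synthesis, were higher in both libraries labelled knockout than in both labelled wild type. The remaining positive values were 3.34 for Serpina3g, 1.97 for Hmgn5, 1.18 for Eea1 and 1.15 for Tomm40.

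Negative differences included the interferon-inducible genes Ifit3 (-2.53), Gbp9 (-1.21), Isg15 (-1.01), Irgm1 (-0.943) and Slfn1 (-0.909). The regulatory genes Socs2 (-1.85) and Lrrc32 (-0.911) also differed. The other kept cells include the Foxp3+ Gpr83- cells, within which alone no genotype test was run. In the other kept cells as a whole 12 of 20 identity genes were higher in the libraries labelled knockout (median 0.51). Over alternatives 0 to 11 were called, against 0 called within the Foxp3+ Gpr83+ cells in the main test. Ebi3 (-5.27), a subunit of interleukin 35, had 20 UMIs in the 293 cells, 14 of them in 1 cell of the female library labelled wild type. Ighm stood at -1.78, Ncoa7 at -1.14, the interleukin 4 receptor chain Il4ra at -0.885 and Tmem64 at -0.791. The female library labelled wild type holds only 20 Foxp3+ Gpr83+ cells, and the part of cell number in these differences was not tested.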

How the results depend on the processing

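Against all other kept cells, 1821 genes were called after thinning to 2000 UMIs and 906 with matched depth. Higher genes made up 45.9% of calls, 34.8% after thinning and 56.3% with matched depth. Against Foxp3+ Gpr83- cells DESeq2 called 279, thinning 412 and matched depth 322, and leaving out 1 library gave 192 to 821. Higher genes were 63.7% of these calls and 74.5% with matched depth. Against unresponsive conventional cells thinning gave 964, matched depth 772 and members without a response UMI 539. The last was chosen after seeing the data, as was a comparison with CD3+ cells only (2886 called) and the genotype test in all other kept cells. That test called 244 genes, 41 by DESeq2, 20 without the filter, 139 after thinning, 91 among CD3+ cells, 7 without the sex term and 24 to 62 with 1 library left out. The genotype test within Foxp3+ Gpr83+ cells called 30 genes without the filter, 2 after thinning, 14 under the stricter rule, 17 without doublets, 2 without the sex term and 0 to 65 with 1 library left out. The interaction called 0 by DESeq2, 0 after thinning, 22 without doublets and 6 to 80 with 1 library left out. Its sign reversed for Isg15 after thinning (0.19) and, without the male library labelled knockout, for Ube2c (-0.77), Il2 (-8.83) and Hist1h1b (-0.010). Leave-one-out values reached 13.31 for Ube2c, 12.37 for Il2 and 12.76 for Hist1h1b. Against all other cells Top2a reversed by DESeq2 (-1.07), as did Birc5 (-0.55), and Nkg7 without doublets (-0.68). Leave-one-out values ran from -2.12 to 1.42 for Top2a, -8.27 to 2.02 for Birc5, -0.22 to 2.44 for Ccnb1 and -0.78 to 1.94 for Nkg7. The causes were not tested. Of the named calls, 66 of 91 against all other cells, 42 of 65 against Foxp3+ Gpr83- cells and 35 of 37 against unresponsive cells held in every alternative, and 0 of 26 interaction calls did. Libraries of the 2 genotypes were matched only by sex, which was the term of the genotype test.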

Other observations

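Some effector genes were carried by few of the 293 cells. Areg, which encodes the tissue-repair factor amphiregulin, had 134 UMIs in 28 cells, 25 of them in 1 cell, and its log2 fold change against all other kept cells was 3.65 (edgeR adjusted p = 1.6e-14). Penk, which encodes the enkephalin precursor, had 40 UMIs in 5 cells. Il10 had no UMI. In contrast, Hopx, a transcriptional cofactor, was detected in 151 cells and Swap70 in 192, and neither passed the test against Foxp3+ Gpr83- cells (-0.21 and 0.30).

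Nrn1, which encodes neuritin, was higher than in all other kept cells (1.66), than in Foxp3+ Gpr83- cells (1.31) and than in unresponsive conventional cells (3.09), with edgeR adjusted p = 1.16e-07, 0.0105 and 2.61e-09. Against Foxp3+ Gpr83- cells its call was lost by DESeq2, with matched depth and without the male library labelled wild type, with a value as low as 0.57. It was detected in 29 cells, 1 of which held 34 of 120 UMIs. Coro2a, an actin-binding coronin, was also higher in the 3 comparisons (3.72, 0.83 and 4.79) and was detected in 104 cells. Its call against Foxp3+ Gpr83- cells was lost in 5 alternatives.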
